A study of Homo sapiens with 12 samples.

Results

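DNA replication and mitosis are served by separate sets of transcripts that proliferating cells make at different times of the cell cycle. This section describes 55 such genes, chosen from a list of 19 replication and 36 mitosis genes, in the human bronchial epithelial line 16HBE when signalling through Ras, MEK and ERK was blocked. A gene entered the fit if a probe for it had a detection p under 0.01 on all 3 arrays of any group, and the brightest such probe stood for it. By this rule 54 of the 55 genes were measured, among 10532 genes in all. They were 18 replication and 36 mitosis genes, each detected on all 12 arrays. CCNE2, which codes for cyclin E2, a partner of CDK2 at the start of S phase, was left out because its probe was detected on 0 of 12 arrays.

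Replication begins when the MCM helicase is loaded at origins by CDC6 and partners in G1, is switched on in S phase, and then unwinds DNA for polymerases that are held by the PCNA clamp. Mitosis begins when CDK1 with cyclin B is activated, after which kinases, kinesins and centromere proteins build the spindle and separate the chromosomes. Transcription of the replication genes is classically tied to E2F sites, and that of the mitosis genes to a promoter element called the CHR, the cell cycle genes homology region, bound by the DREAM and MuvB complexes. In epithelial cells the Ras, MEK and ERK cascade is known for carrying growth factor signals to cyclin D1, which lies upstream of E2F.

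Total RNA was hybridised to 12 Illumina bead arrays, 3 for each of 4 groups, and the design text names 3 separate experiments, with every group sampled in each. All 4 groups were stably infected with a retrovirus made from the vector pQCXIP. Control cells carried the empty vector and were given DMSO, the solvent, for 4 days. The MEK inhibitor group carried the empty vector and received GSK1120212 at 500 nM for 4 days, and the ERK inhibitor group received SCH772984 at 1 µM for 4 days on the same background. The fourth group carried pQCXIP with dominant-negative Ras, DN Ras N17, a mutant Ras that keeps the normal protein from being switched on. Its labels name neither a solvent nor a time, so the DN Ras comparison differs from control in the vector insert and may differ in DMSO. The sources used here state neither whether infected cells were a pool or a clone nor the promoter that drives the insert. The line usually called 16HBE was immortalised with the large T antigen of SV40, which binds the RB proteins, and the labels say only that it is immortalised.

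Between 16825 and 18295 of 47322 probes were detected on an array, with a median of 21 or 22 beads per probe. The fewest beads behind any member's value was 7. On DN Ras replicate 3, 85 genes read 2-fold or more above or below the remaining DN Ras arrays, and on the other 11 arrays the same count was at most 22. All 9 airway epithelial marker genes on the array were detected in every group. Leukocyte markers were detected for 4 of 14 genes in every group (CD14, CD68, FCGR3A and CSF1R). Fibroblast markers were detected for 3 to 5 of 12, with COL1A1, ACTA2 and FBLN1 in every group, and endothelial markers for 0 to 2 of 12. Markers detected in no group included PTPRC and CD3D (leukocyte), COL1A2, COL3A1 and PDGFRA (fibroblast), and PECAM1 and CDH5 (endothelial). DUSP6, a known output of the cascade, fell in each inhibited group (limma adjusted p at most 5.80e-05). It codes for a phosphatase of ERK that ERK itself induces, and had a mean log2 intensity of 6.10 ± 0.15 in control, 4.37 ± 0.09 with the MEK inhibitor, 4.73 ± 0.09 with the ERK inhibitor and 4.85 ± 0.33 with DN Ras (SD, n = 3 each). It was detected on 3, 0, 1 and 2 of the 3 arrays in these groups, so the inhibited levels lay at or near background. Against the lowest detected signal on each array, DUSP6 was at least 2.38-fold lower with the MEK inhibitor. CCND1, which codes for cyclin D1, changed by −2.06 ± 0.17 with the MEK inhibitor (log2 change ± SE, limma adjusted p = 8.68e-07) and by −1.19 ± 0.17 with DN Ras (adjusted p = 0.000394). With the ERK inhibitor its difference of −0.49 ± 0.17 did not pass the test (adjusted p = 0.0801). Of 10 listed outputs of the cascade, 8 were called lower with the ERK inhibitor and 10 each with the MEK inhibitor and DN Ras. Over all genes 5.48%, 8.86% and 6.45% were called lower. EGR1, among these outputs, had a mean log2 intensity of 8.47 ± 0.26 in control. It read 5.27 ± 0.15 with the MEK inhibitor, 5.24 ± 0.16 with the ERK inhibitor and 5.77 ± 0.25 with DN Ras (SD).

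Most mitosis windows held a CHR and most replication windows an E2F match, and the promoters of 7 members named below are shown here as examples. Of these, E2F1 passed in no comparison of the main fit. CCNB1 and CENPF, which did pass in a comparison, had a window that is not printed. In the RefSeq promoter table (build GRCh38.p14, windows from 250 bases before to 50 after each gene's start), 46 of the 55 genes had a window. They were 16 of the replication and 30 of the mitosis genes, with 24 and 33 windows. The lines give the 190 bases from 160 before to 30 after the start, 5′ to 3′ on the gene's own strand. Capitals mark motif matches on either strand. The CHR was searched as TTNGAA with T or C in place of N. An E2F site was searched as TTNNCGC with C or G in place of each N. Where a match on each strand overlaps, the capitals run on. The first 4 are mitosis genes and the last 3 replication genes.
CCNB2, cyclin B2 (chr15:59104986-59105175, plus strand): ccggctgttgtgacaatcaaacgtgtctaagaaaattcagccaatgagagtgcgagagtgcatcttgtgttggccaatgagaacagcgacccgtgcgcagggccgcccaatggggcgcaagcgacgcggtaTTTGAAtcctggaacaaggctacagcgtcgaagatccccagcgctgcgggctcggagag
CENPA, the centromeric histone (chr2:26785896-26786085, plus strand): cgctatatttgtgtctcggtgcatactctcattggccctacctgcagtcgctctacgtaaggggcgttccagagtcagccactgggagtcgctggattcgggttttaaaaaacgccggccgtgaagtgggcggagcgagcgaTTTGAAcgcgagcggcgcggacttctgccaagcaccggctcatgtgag
KIF23, a kinesin of the midbody (chr15:69414189-69414378, plus strand): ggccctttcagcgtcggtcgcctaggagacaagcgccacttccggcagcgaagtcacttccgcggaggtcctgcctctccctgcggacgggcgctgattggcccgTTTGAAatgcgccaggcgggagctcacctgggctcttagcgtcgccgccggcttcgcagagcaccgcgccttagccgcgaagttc
MKI67, the Ki-67 antigen (chr10:128126394-128126583, minus strand): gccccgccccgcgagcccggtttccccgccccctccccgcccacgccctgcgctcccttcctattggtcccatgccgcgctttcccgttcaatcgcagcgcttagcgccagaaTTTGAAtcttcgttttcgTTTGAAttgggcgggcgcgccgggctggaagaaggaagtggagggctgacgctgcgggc
CDC6, a loader of the helicase (chr17:40287719-40287908, plus strand): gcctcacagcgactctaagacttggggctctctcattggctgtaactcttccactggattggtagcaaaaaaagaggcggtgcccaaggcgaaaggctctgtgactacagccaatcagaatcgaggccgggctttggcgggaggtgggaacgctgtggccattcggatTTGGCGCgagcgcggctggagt
MCM6, a helicase subunit (chr2:135876414-135876603, minus strand): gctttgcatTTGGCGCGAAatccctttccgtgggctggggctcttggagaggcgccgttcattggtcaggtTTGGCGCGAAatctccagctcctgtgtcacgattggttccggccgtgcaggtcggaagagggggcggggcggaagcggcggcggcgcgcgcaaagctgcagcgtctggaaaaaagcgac
E2F1, a transcription factor of the E2F family (chr20:33686356-33686545, minus strand): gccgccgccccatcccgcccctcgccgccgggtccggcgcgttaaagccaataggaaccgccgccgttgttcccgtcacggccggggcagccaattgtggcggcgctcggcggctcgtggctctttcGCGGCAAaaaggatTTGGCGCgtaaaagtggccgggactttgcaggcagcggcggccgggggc

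The 4 mitosis promoters held a CHR within 60 bases before the start: at −29 in CCNB2, −18 in CENPA, −55 in KIF23, and at −47 and −29 in MKI67 (position of the match's first base, counted from the start). CDC6 had an E2F match at 8 bases after the start, and E2F1 had matches at −33 and −19. MCM6 had 2 stretches of overlapping E2F matches, each read on both strands, and a CHR at −246, outside the bases shown. A CHR was found in 72.7% of the 33 mitosis windows, in 8.33% of the 24 replication windows and in 16.4% of all 35116 windows of the table. For E2F sites the order turned round, with 24.2% of mitosis, 62.5% of replication and 13.0% of all windows. CCAAT, a box read on both strands that often stands beside a CHR, was found in 78.8%, 70.8% and 34.6%. A match is a run of letters in this window and does not show that a factor binds there. Some windows departed from the split between the lists. For example, those of CDK1 and CENPA, both mitosis genes, held both a CHR and an E2F match, and the CCNB1 window held an E2F match and no CHR.

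**Figure D1:**
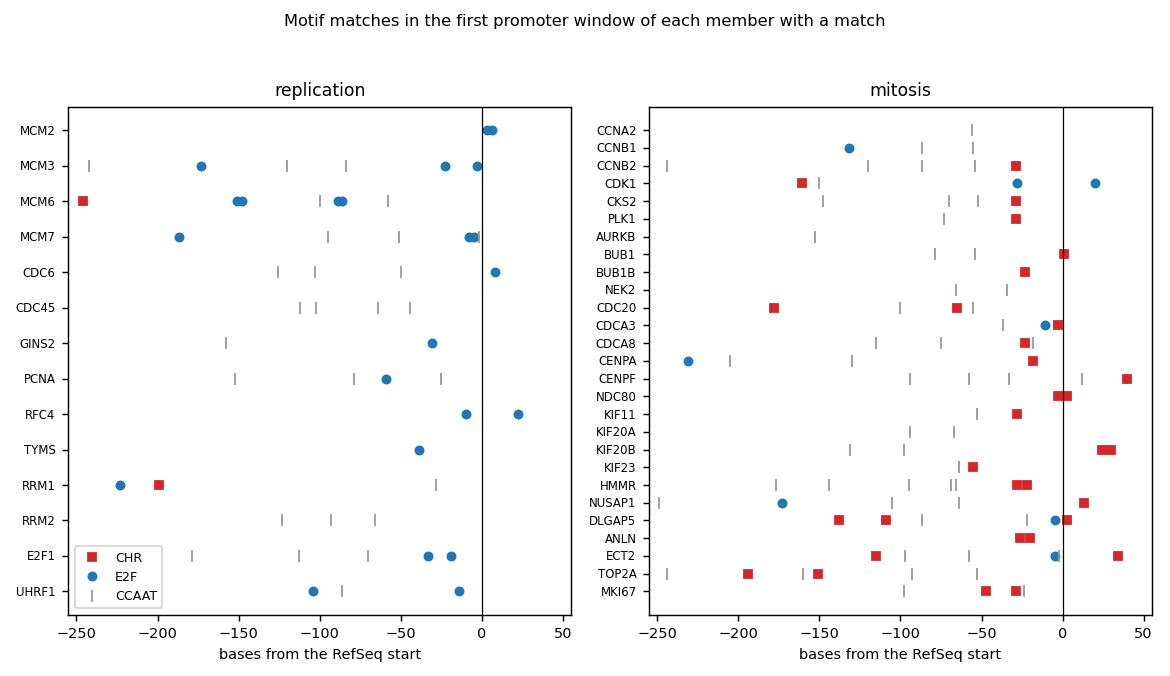
Positions of CHR (squares), E2F (circles) and CCAAT (ticks) matches in the first promoter window of each member that has a match, in bases from the RefSeq start (0), with replication genes on the left and mitosis genes on the right. Squares gather just before the start in the mitosis panel, where the 37 matches over all windows have a median position of −28, while the replication panel holds 2.

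With MEK inhibited, mitosis transcripts sat a little higher than in control and replication transcripts did not, by the brightest probe of each gene. Of the 36 mitosis genes, 5 rose and 0 fell, at a limma adjusted p under 0.05 over all genes. Over all 10532 genes, 7.11% were called higher and 8.86% lower, against 13.9% and 0% of the mitosis genes. The median mitosis gene changed by 0.20 on the log2 scale, and by 0.22, 0.18 and 0.20 in the 3 same-numbered pairs of arrays. No label ties these numbers to the experiments. The median over all genes was 0.0067. The change was above 0 for 31 of 36 mitosis genes (86.1%), against 51% of all genes. Of the 18 replication genes, 0 rose and 0 fell (1 at an unadjusted p under 0.05, or 5.56%, against 29.2% of all genes), with a median change of −0.015. In bulk RNA, a change in the share of cells in mitosis and a change in the amount of a transcript in each cell cannot be told apart, here and in every comparison below.

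**Figure D2:**
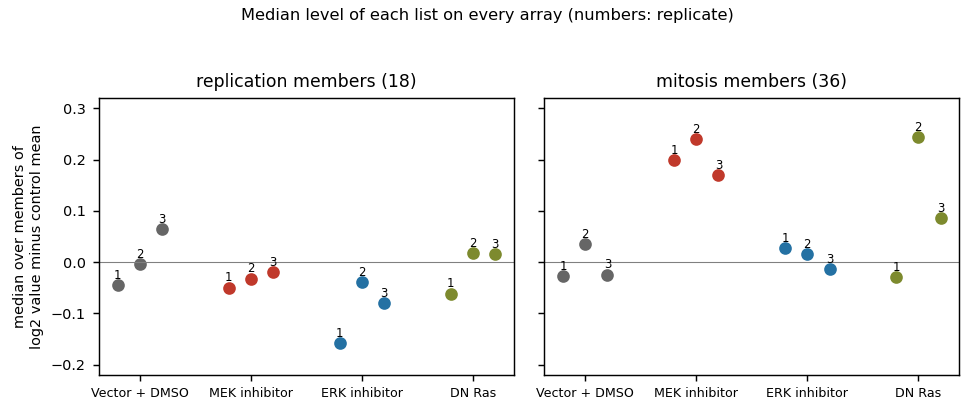
Median over the 18 replication genes (left) and the 36 mitosis genes (right) of each array's log2 intensity minus the control mean, with 1 point per array and its replicate number. The 3 MEK inhibitor arrays lie at 0.17 to 0.24 in the mitosis panel, above the control arrays at −0.027 to 0.035, and the DN Ras arrays spread from −0.029 to 0.24.

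The 5 mitosis genes that rose with the MEK inhibitor were CCNB2, BIRC5, CENPA, CENPF and KIF23. CENPA, the histone H3 variant that marks centromeres, had log2 intensities of 8.87, 8.97 and 8.85 on the control arrays and of 9.34, 9.29 and 9.44 with the MEK inhibitor. Every MEK inhibitor array was above every control array, and the change was 0.46 ± 0.11 (adjusted p = 0.00912). KIF23, a kinesin motor of the central spindle that is needed for cytokinesis, went from 8.90, 9.30 and 9.05 to 9.50, 9.69 and 9.76. It rose by 0.57 ± 0.14 (adjusted p = 0.011), again without overlap between the groups. CENPF, a kinetochore protein that builds up in G2, read 8.46, 8.62 and 8.39 in control and 8.94, 9.22 and 9.15 with the inhibitor. Its rise of 0.62 ± 0.18 (adjusted p = 0.0299) was the largest of any member in this comparison. CCNB2, one of the B-type cyclins that activate CDK1, read 10.10, 10.10 and 10.05 in control, a narrow range, and 10.33, 10.55 and 10.62 with the inhibitor. It rose by 0.42 ± 0.11 (adjusted p = 0.0202). BIRC5, or survivin, a subunit of the chromosomal passenger complex with Aurora B, read 9.85, 9.96 and 9.71 against 10.15, 10.22 and 10.37. It rose by 0.41 ± 0.12 (adjusted p = 0.0286).

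These rises were small, at 1.32 to 1.53 fold, and how firmly they passed depended on the arrays and the scaling. Of the 5, CENPA passed whichever array was left out (adjusted p = 0.00804 to 0.0445). Without control replicate 1, or without MEK inhibitor replicate 3, CENPA alone passed. Without control replicate 3, or without MEK inhibitor replicate 2, CENPA and KIF23 passed. When the arrays were scaled to 1 median over all probes in place of quantiles, 0 of the 5 passed, with a median change of 0.055 for the mitosis genes. Median scaling over the probes detected on all 12 arrays, an alternative added after the data were seen, left all 5 called.

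Median scaling over all probes moved all genes together. Detected probes made up 35.6% to 38.7% of an array. The median change of all genes against control became −0.12 under MEK inhibition, 0.12 under ERK inhibition and −0.10 with DN Ras, and −0.24 for the MEK against the ERK inhibitor and −0.23 for DN Ras against the ERK inhibitor. Relative to these medians the mitosis genes stood at 0.17, 0.0026 and 0.057 against control, and the replication genes at −0.044, −0.13 and −0.033. The balance of calls over all genes moved too, to 2.41% higher and 8.37% lower with the MEK inhibitor, 5.98% and 1.11% with the ERK inhibitor, and 1.58% and 5.24% with DN Ras. Between groups it moved to 0.608% and 13.2% for the MEK against the ERK inhibitor, 0.56% and 12.1% for DN Ras against the ERK inhibitor, and 1.74% and 0.864% for DN Ras against the MEK inhibitor.

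Cell type markers moved in the comparison of MEK inhibitor with control as well. Of the 9 airway epithelial markers, 4 were called lower (KRT8, KRT18, KRT19 and CLDN7) and 0 higher, with a median change of −0.55 and 0 of 9 above 0. Their summed intensity was 15190 to 17268 on control and 11587 to 12834 on MEK inhibitor arrays. With the ERK inhibitor 1 was called lower (KRT18) and 1 higher (CDH1), with DN Ras 3 lower (KRT8, KRT18 and CLDN4) and 1 higher (KRT5), and the sums were 15740 to 16800 and 12806 to 15072. Of the 5 fibroblast markers measured, 3 were called higher (COL1A1, LUM and POSTN) and 1 lower (ACTA2), with a summed intensity of 1063 to 1378 on control and 1158 to 1251 on MEK inhibitor arrays. LUM and POSTN met the detection rule in the MEK inhibitor group alone. They thus entered the fit through the group where they were higher, which limits what their calls can show. Of the 4 leukocyte markers, CSF1R was called higher here and in both other groups, and the summed intensity was 299 to 382.5 in control and 405 to 454 with the MEK inhibitor. The part of these genes in the result was not tested.

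The mitosis genes are given here by role, as a description with no test between roles of 2 to 7 genes. Centromere and kinetochore genes (CENPA, CENPE, CENPF and NDC80) had a median change of 0.40 with the MEK inhibitor, and the cyclins with CDK1 and its partner CKS2 one of 0.28. The 2 passenger complex genes, BIRC5 and CDCA8, had a median of 0.34, kinesins of 0.26 and spindle proteins of 0.27. The mitotic kinases had a median of 0.12, cytokinesis genes of 0.023 and protein turnover genes (CDC20, UBE2C and CDCA3) of −0.0006, which is the value of UBE2C's brighter probe. The further probe of UBE2C rose by 0.64. Chromosome structure genes (TOP2A, MKI67 and HMGB2) had a median of 0.032, with HMGB2 at 0.22. CCNB1, cyclin B1, read 9.53, 9.73 and 9.32 in control and 9.84, 9.99 and 9.89 with the inhibitor, and its difference of 0.38 ± 0.13 missed the threshold (adjusted p = 0.0532). It passed in 6 of 8 other settings, among them the authors' processed values, no background correction, the replicate number as a block and a fit of the 2 groups alone (adjusted p down to 0.0248), and in 2 of 12 fits that left out an array. CCNA2, cyclin A2, which acts in both S phase and G2, differed by 0.28 ± 0.12 (adjusted p = 0.131). CDK1 itself differed by 0.02 ± 0.15 on its brighter probe, with a 95% interval of −0.30 to 0.34. On its further probe CDK1 differed by 0.29 ± 0.13 (adjusted p over all kept probes 0.153). TOP2A, the topoisomerase that untangles sister chromatids, differed by −0.026 ± 0.12 (−0.27 to 0.22), and MKI67, whose protein coats mitotic chromosomes and is the usual marker of cycling cells, by 0.032 ± 0.18 (−0.35 to 0.42). The lowest members were BUB1, a kinase of the spindle checkpoint, at −0.28 ± 0.16 (adjusted p = 0.279), ECT2, which acts in cytokinesis, at −0.073 ± 0.12, and TOP2A. By control mean, MKI67 (5.45), E2F1 (5.92) and CDC6 (6.06) were the dimmest of the measured members. The lowest detected signal, as used above for DUSP6, averaged 4.85 with the MEK inhibitor. Readings of MKI67, E2F1 and CDC6 thus lay nearer to background than those of other members, here and below.

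**Figure D3:**
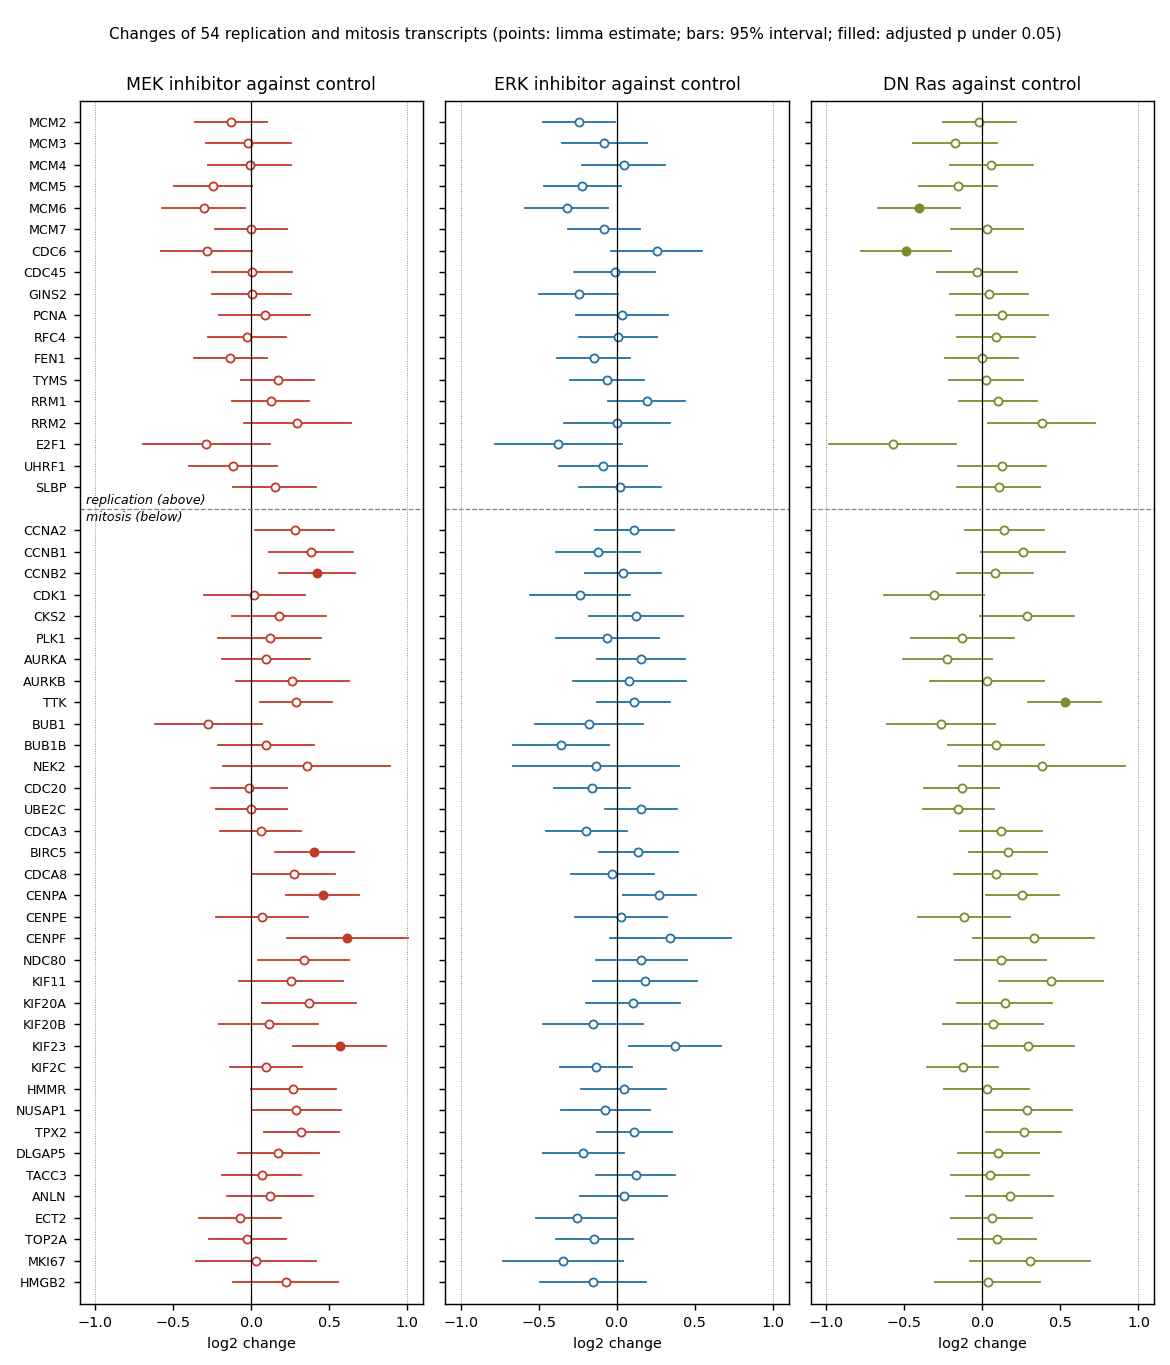
Log2 change of each of the 54 measured genes against control, in 1 panel each for MEK inhibitor, ERK inhibitor and DN Ras (points: limma estimate, bars: 95% interval, filled points: adjusted p under 0.05, dotted lines: 2-fold). The filled points are 5 mitosis genes with the MEK inhibitor, 0 genes with the ERK inhibitor, and CDC6, MCM6 and TTK with DN Ras.

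Other mitosis genes lay near the threshold with the MEK inhibitor or well inside it. TPX2, which brings Aurora A to the spindle, differed by 0.32 ± 0.11 (adjusted p = 0.0657), and KIF20A, a kinesin of the central spindle, by 0.37 ± 0.14 (adjusted p = 0.0932). TTK stood at 0.29 ± 0.11 (adjusted p = 0.0921) and NDC80, the kinetochore's link to microtubules, at 0.34 ± 0.14 (adjusted p = 0.111). CDCA8, or borealin, which joins survivin in the passenger complex, stood at 0.27 ± 0.13, and its kinase AURKB at 0.26 ± 0.17. NEK2 stood at 0.35, reading 8.99, 9.16 and 8.98 in control and 9.35, 9.38 and 9.46 with the inhibitor. HMMR, NUSAP1 and DLGAP5, proteins of the spindle, stood at 0.27 ± 0.13, 0.29 ± 0.13 and 0.17 ± 0.12. PLK1, a kinase of mitotic entry, differed by 0.12 ± 0.15, AURKA by 0.093 ± 0.13, and CDC20, which activates the anaphase-promoting complex, by −0.012 ± 0.11. None of these passed the test.

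The replication genes moved little with the MEK inhibitor, from −0.30 for MCM6 to 0.30 for RRM2. The 95% interval lay within 2-fold of control for 18 of 18 replication genes and for 35 of 36 mitosis genes, and within 1.5-fold for 16 of the 18 and 24 of the 36. MCM7, a subunit of the helicase, read 11.46, 11.50 and 11.50 in control and 11.40, 11.62 and 11.44 with the inhibitor. The groups overlapped, and the difference was −0.0007 ± 0.11, with a 95% interval of −0.23 to 0.23. MCM2, another subunit, differed by −0.13 ± 0.11 (adjusted p = 0.466), and PCNA, the sliding clamp, by 0.085 ± 0.14 (adjusted p = 0.734). On further probes MCM7 differed by 0.21 ± 0.14 and PCNA by 0.33 ± 0.17, and neither passed. RRM2, the subunit of ribonucleotide reductase that limits the supply of deoxynucleotides in S phase, differed by 0.30 ± 0.16 (adjusted p = 0.242). TYMS, thymidylate synthase, and SLBP, which binds the stem-loop of histone mRNAs, followed at 0.17 ± 0.11 and 0.15 ± 0.13. The lowest values were MCM6 at −0.30 ± 0.13 (adjusted p = 0.116), E2F1 at −0.29 ± 0.19 (adjusted p = 0.345) and CDC6 at −0.29 ± 0.14 (adjusted p = 0.175). MCM5 at −0.24 ± 0.12 was the next lowest, while MCM3, MCM4, CDC45, GINS2 and RFC4, which loads the clamp, lay between −0.029 and 0.0061. FEN1, the nuclease that trims Okazaki fragments, stood at −0.13 ± 0.11. As a measure of size without sign, the median absolute change was 0.13 for replication, 0.24 for mitosis and 0.19 for all genes.

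With ERK inhibited, 0 of 54 members rose and 0 fell by limma's test, while 5.92% of all genes were called higher and 5.48% lower. At an unadjusted p under 0.05 the counts were 2 of 18 replication (11.1%) and 3 of 36 mitosis genes (8.33%), against 26.4% of all genes. The median change was −0.071 for replication and 0.034 for mitosis, against −0.01 for all genes. Every one of the 54 intervals lay within 2-fold of control. The largest positive values belonged to genes already named: KIF23 at 0.37 ± 0.14 (adjusted p = 0.0987), CENPF at 0.34 ± 0.18 (adjusted p = 0.244) and CENPA at 0.27 ± 0.11 (adjusted p = 0.121). CENPF spread widely in this group, at 8.37, 8.87 and 9.26, so that it lay below, above and above the control arrays. Without ERK inhibitor replicate 1 it passed (adjusted p = 0.036), the only mitosis gene that did so when an array was left out. The lowest mitosis genes were BUB1B, a checkpoint protein at the kinetochore, at −0.36 ± 0.14 (adjusted p = 0.127), MKI67 at −0.35 ± 0.18 (adjusted p = 0.238) and ECT2 at −0.26 ± 0.12 (adjusted p = 0.196).

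Among replication genes under ERK inhibition, CDC6 read 6.34, 6.25 and 6.34 against 5.92, 6.13 and 6.13 in control. All 3 ERK inhibitor arrays were above the control arrays, and the difference of 0.25 ± 0.14 did not pass (adjusted p = 0.251). RRM1, the large subunit of ribonucleotide reductase, stood at 0.19 ± 0.12 and MCM4 at 0.044 ± 0.12. E2F1 at −0.37 ± 0.19 (adjusted p = 0.228), MCM6 at −0.32 ± 0.13 (adjusted p = 0.112) and GINS2, a part of the active helicase, at −0.24 ± 0.12 (adjusted p = 0.202) were the lowest. Under the added median scaling over detected probes, MCM6 passed as lower (adjusted p = 0.0455). MCM2 at −0.24 ± 0.11 (adjusted p = 0.173), PCNA at 0.033 ± 0.14, RRM2 at 0.0016 ± 0.16 and MCM7 at −0.079 ± 0.11 did not pass. CCNA2 at 0.11 ± 0.12, CCNB1 at −0.12 ± 0.13, CDK1 at −0.24 ± 0.15 and TOP2A at −0.14 ± 0.12 did not pass either.

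**Figure D4:**
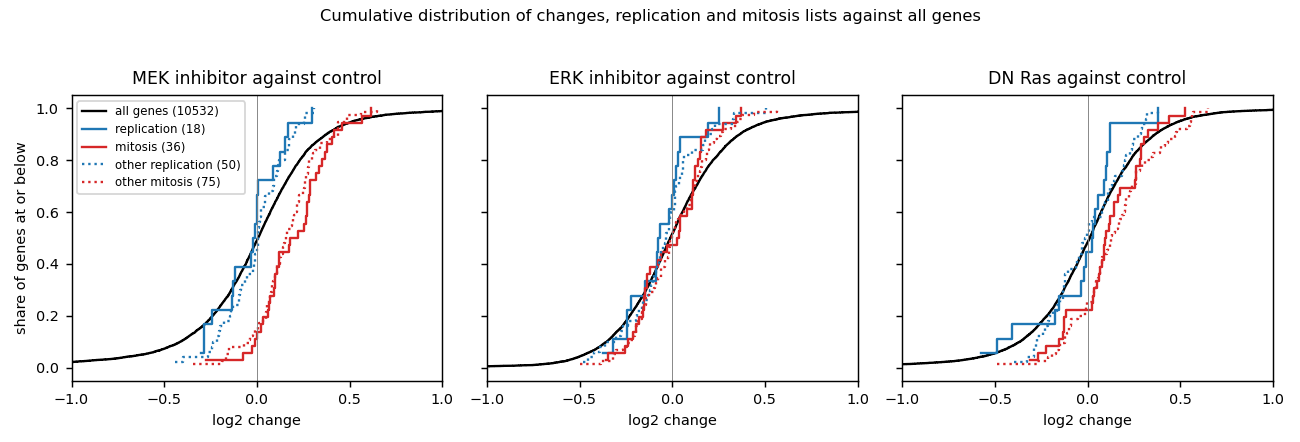
Cumulative share of genes at or below each log2 change against control, for the 54 members split into replication (solid blue) and mitosis (solid red), for 50 further replication and 75 further mitosis genes (dotted), and for all 10532 genes (black; the axis stops at 2-fold). With the MEK inhibitor both mitosis curves lie to the right of the other curves over most of their length, with medians of 0.20 and 0.16.

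With DN Ras, 2 of 18 replication genes fell, CDC6 and MCM6, and 1 of 36 mitosis genes rose, TTK. This comparison shares its control arrays with those of both inhibitors. Over all genes 5.81% were called higher and 6.45% lower, against 11.1% of replication genes lower and 2.78% of mitosis genes higher. CDC6, which recruits the MCM helicase to origins and whose E2F letters are shown above, read 5.92, 6.13 and 6.13 in control and 5.72, 5.42 and 5.57 with DN Ras. The groups did not overlap, and CDC6 fell by 0.49 ± 0.14 on the log2 scale (adjusted p = 0.0292). MCM6 read 10.75, 10.93 and 11.15 in control and 10.59, 10.56 and 10.46 with DN Ras. It too lay below every control array, and fell by 0.41 ± 0.13 (adjusted p = 0.0454). TTK, also called MPS1, the kinase that starts the spindle checkpoint, read 9.23, 9.22 and 9.19 in control against 9.88, 9.70 and 9.64. The control arrays lay within 0.05 of each other, and TTK rose by 0.53 ± 0.11 (adjusted p = 0.00555).

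The call for TTK held whichever array was left out (adjusted p = 0.0062 to 0.026) and was lost under median scaling over all probes (adjusted p = 0.288). CDC6 did not pass without control replicate 2 or 3, without DN Ras replicate 2 or 3, under median scaling or with no background correction, where its change was −0.22 (adjusted p up to 0.102). MCM6 passed in 3 of 12 fits that left out an array, namely those without control replicate 1, without MEK inhibitor replicate 2 and without ERK inhibitor replicate 3, and its adjusted p reached 0.188. Median scaling over all probes (adjusted p = 0.0544) and a fit of the 2 groups alone (adjusted p = 0.0933) did not call it either. E2F1, the founding member of the E2F family, read 6.31, 5.46 and 5.98 in control and 5.12, 5.58 and 5.33 with DN Ras. One control array lay within the DN Ras range, and the difference of −0.57 ± 0.19 did not pass (adjusted p = 0.0619). It passed without control replicate 2 (adjusted p = 0.0126) and under median scaling (adjusted p = 0.0453). KIF11, the kinesin that pushes spindle poles apart, read 7.92, 8.11 and 8.07 in control and 8.03, 8.67 and 8.71 with DN Ras. Its difference of 0.44 ± 0.16 did not pass (adjusted p = 0.0788), while without DN Ras replicate 1 it did (adjusted p = 0.00297).

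The DN Ras arrays differed from each other in their mitosis transcripts, whose median stood at −0.029, 0.24 and 0.086 against the control mean. In limma's fit the median mitosis gene was 0.098 above control, and it was 0.024, 0.23 and 0.14 in the same-numbered pairs. Leaving out DN Ras replicate 2 took the median to 0.014 and leaving out replicate 1 to 0.18. Over the replication list the median was 0.027. The change was above 0 for 28 of 36 mitosis and 10 of 18 replication genes, against 51.7% of all genes. RRM2 at 0.38 ± 0.16 (adjusted p = 0.137), NEK2, a kinase of the centrosome, at 0.38 ± 0.25 (adjusted p = 0.357), PCNA at 0.12 ± 0.14 and UHRF1, which carries DNA methylation through replication, at 0.12 ± 0.13 were among the highest of their lists without passing. CDK1 at −0.31 ± 0.15 (adjusted p = 0.2), BUB1 at −0.27 ± 0.16 (adjusted p = 0.31) and AURKA, Aurora kinase A of the spindle poles, at −0.22 ± 0.13 (adjusted p = 0.297) were the lowest mitosis genes. On its further probe CDK1 stood at −0.04 ± 0.13. NEK2 passed without ERK inhibitor replicate 3 (adjusted p = 0.0375), an array on which it read 8.01 against 9.31 and 9.40 on the other arrays of that group. The fewest beads behind NEK2 in that group were 7, the minimum of any member. The differences of MCM2 (−0.02 ± 0.11), MCM7 (0.032 ± 0.11), CCNA2 (0.14 ± 0.12), CCNB1 (0.26 ± 0.13), TOP2A (0.094 ± 0.12) and MKI67 (0.30 ± 0.18) did not pass. All 54 intervals lay within 2-fold of control, and without DN Ras replicate 3 the median of the mitosis genes was 0.12.

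The inhibited groups were also compared with each other, and these comparisons share no control arrays, though each shares a group with another. CDC6 was lower with the MEK inhibitor than with the ERK inhibitor, where it read 5.54, 5.71 and 6.06 against 6.34, 6.25 and 6.34, a change of −0.54 ± 0.14 (adjusted p = 0.019), or −0.26 without background correction (adjusted p = 0.038). It was lower with DN Ras than with the ERK inhibitor too, by a change of −0.74 ± 0.14 (adjusted p = 0.00308). Without background correction that change was −0.36. The fitted −0.74 was the largest difference of a member in any comparison, and it passed under every alternative and with every array left out (adjusted p = 0.000564 to 0.0153). The difference between MEK and ERK inhibitor did not pass without MEK inhibitor replicate 1 or 2, or without ERK inhibitor replicate 1 or 3 (adjusted p up to 0.0825). CDC6 was the 1 replication gene of 18 called in each of these 2 comparisons. Over all genes 3.52% were higher and 6.69% lower with the MEK than with the ERK inhibitor, and 4.79% higher and 6.09% lower with DN Ras than with the ERK inhibitor.

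Of the mitosis genes, 2 of 36 (5.56%) were higher and 0 lower with the MEK than with the ERK inhibitor, against 3.52% and 6.69% of all genes. CCNB1 read 9.84, 9.99 and 9.89 with the MEK inhibitor and 9.38, 9.57 and 9.28 with the ERK inhibitor. The groups lay apart, and CCNB1 was higher by 0.50 ± 0.13 (adjusted p = 0.0199). It did not pass without MEK inhibitor replicate 2 or 3, without ERK inhibitor replicate 1 or 3, or under median scaling over all probes, where the change was 0.23 (adjusted p = 0.44). CCNB2 read 10.13, 10.08 and 10.16 with the ERK inhibitor, below its MEK inhibitor arrays, and was higher by 0.38 ± 0.11 with the MEK inhibitor (adjusted p = 0.0466). It passed in 4 of 12 fits that left out an array, each of the 4 without MEK inhibitor replicate 1 or a DN Ras array, and 3 other settings did not call it. These were the replicate number as a block (adjusted p = 0.0505), the 2 groups alone (adjusted p = 0.0581) and median scaling over all probes, where the change was 0.12 (adjusted p = 0.7). The median mitosis gene was 0.20 higher with the MEK than with the ERK inhibitor, and 32 of 36 were above 0, against 52% of all genes. For replication the median was 0.036.

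Between DN Ras and the ERK inhibitor 2 of 36 mitosis genes (5.56%) were higher, TTK and MKI67, and 0 lower. Over all genes 4.79% were higher and 6.09% lower, so the share higher was near that of all genes. TTK read 9.38, 9.36 and 9.22 with the ERK inhibitor, below its DN Ras arrays, with a change of 0.42 ± 0.11 (adjusted p = 0.0248). It did not pass without ERK inhibitor replicate 2 or 3 or DN Ras replicate 1 (adjusted p up to 0.0881), with the 2 groups alone in the fit (adjusted p = 0.0934), or under median scaling over all probes, where the change was 0.13 (adjusted p = 0.691). MKI67 read 4.96, 5.03 and 5.31 with the ERK inhibitor and 5.48, 6.28 and 5.50 with DN Ras, 1 array standing well above the other 2. The change was 0.65 ± 0.18 (adjusted p = 0.0313), and it did not pass without DN Ras replicate 2, the array that read 6.28, or without ERK inhibitor replicate 1 or 2 (adjusted p up to 0.105). It was also lost under median scaling over all probes (adjusted p = 0.117), with the 2 groups alone in the fit (adjusted p = 0.104) and with no background correction, where the change was 0.27 (adjusted p = 0.0839). Between DN Ras and the MEK inhibitor 0 of 54 members were called, where 2.49% of all genes were higher and 1.91% lower. At an unadjusted p under 0.05 there were 0 replication and 4 mitosis genes (11.1%), against 19% of all genes, and the median change was 0.036 for replication and −0.13 for mitosis.

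**Figure D5:**
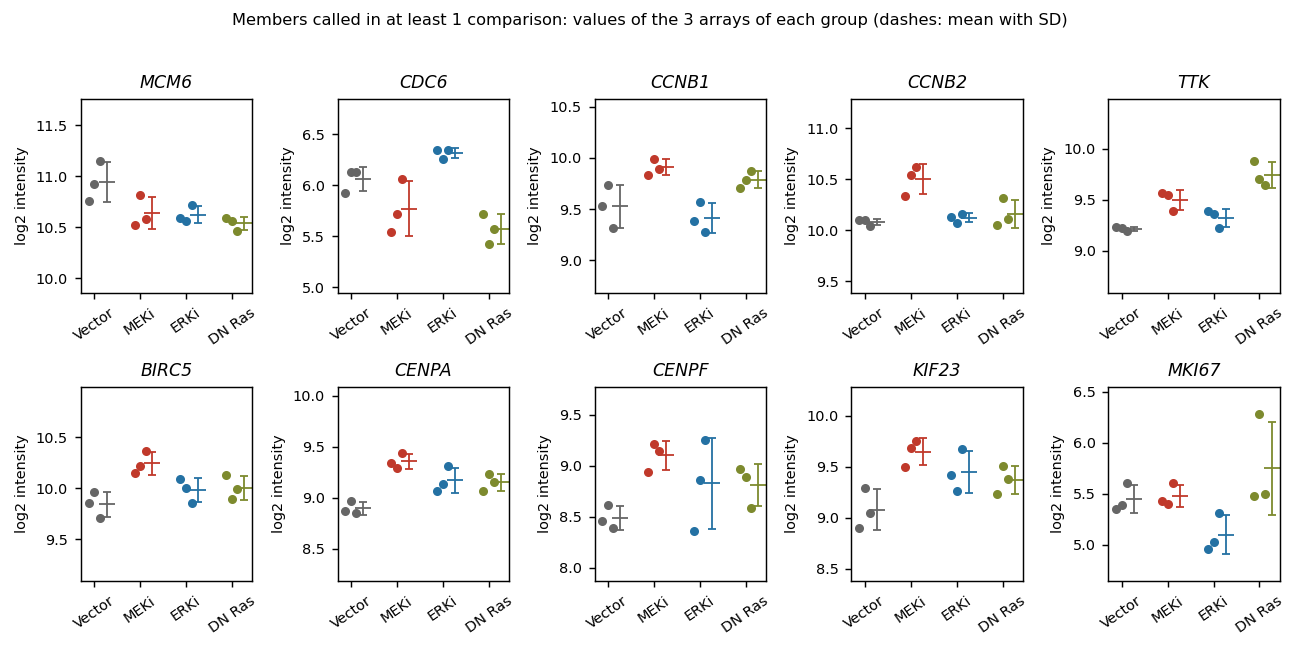
Normalized log2 intensity on each array for the 10 members called in at least 1 comparison, by group (Vector: control, MEKi: MEK inhibitor, ERKi: ERK inhibitor), with 1 point per array and the mean with its SD beside the points. Vertical axes span the same number of log2 units but start at different values, so heights compare groups within a panel only. MEK inhibitor points stand above control in CCNB2, BIRC5, CENPA, CENPF and KIF23, and DN Ras points stand below control in CDC6 and MCM6.

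Differences anywhere among the 4 groups were tested with limma's moderated F-test. It called 6 of the 54 members, which were CDC6, CCNB1, CCNB2, TTK, CENPA and KIF23. As shares this was 5.56% of replication and 13.9% of mitosis genes, against 25.5% of all genes. Without DN Ras replicate 1 the count was 11, and without MEK inhibitor replicate 2 or 3 it was 2, CDC6 and TTK. Under median scaling over all probes it was 1, CDC6.

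For 21 of the measured genes a further probe was kept, and it gave a second reading of the same gene. With the MEK inhibitor 14 of the 21 had the sign of the brighter probe, 5 were called higher and 0 lower. The share called over all kept probes is not given here, so this count is a description only. By gene, 7.11% of all genes were called higher and 8.86% lower. BIRC5, CENPA and KIF23 rose on both probes, by 0.40 ± 0.11, 0.48 ± 0.15 and 0.44 ± 0.13 on the further one (adjusted p over all kept probes 0.0252, 0.045 and 0.0303). CCNB2 and CENPF had no further probe. On their further probes the replication genes MCM3, MCM4, MCM7 and PCNA stood at 0.043, 0.0087, 0.21 and 0.33 with the MEK inhibitor. RFC4, FEN1 and SLBP stood at 0.039, 0.10 and 0.18. All of these lay above 0 and none was called, while the brighter probes of MCM3, MCM4, MCM7, RFC4 and FEN1 lay below 0. NUSAP1, a protein that bundles spindle microtubules, rose by 0.53 ± 0.14 on its further probe (adjusted p = 0.0192) and differed by 0.29 ± 0.13 on the brighter (adjusted p = 0.166). UBE2C, the ubiquitin-conjugating enzyme that works with the anaphase-promoting complex, disagreed most: its brighter probe differed by −0.0006 ± 0.11 and its further probe rose by 0.64 ± 0.15 (adjusted p = 0.00907). With DN Ras the further probe of KIF11 rose by 0.53 ± 0.14 (adjusted p = 0.0254), and with the ERK inhibitor 0 further probes were called. The median distance between the probes of a gene was 0.11 to 0.12 on the log2 scale across the 3 comparisons.

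Other genes of the same processes were read from lists chosen with earlier results of these data known. Of 75 further mitosis genes, 6 rose and 0 fell with the MEK inhibitor, 2 rose and 1 fell with the ERK inhibitor, and 12 rose and 1 fell with DN Ras. As shares, 8%, 2.67% and 16% rose, against 7.11%, 5.92% and 5.81% of all genes, and 0%, 1.33% and 1.33% fell, against 8.86%, 5.48% and 6.45%. The median change was 0.16, −0.0036 and 0.13. PKMYT1, a kinase that holds CDK1 inactive, rose by 0.49 ± 0.11 with the MEK inhibitor (adjusted p = 0.0066) and by 0.48 ± 0.11 with DN Ras (adjusted p = 0.00996). KIF18A, a kinesin that trims kinetochore microtubules, rose by 0.49 ± 0.11 and 0.48 ± 0.11 in the same groups. FBXO5, or EMI1, an inhibitor of the anaphase-promoting complex, rose by 0.44 ± 0.13 with the MEK inhibitor and by 0.55 ± 0.13 with DN Ras. CENPW, a centromere protein, rose by 0.65 ± 0.15 with the MEK inhibitor, and CEP55, which acts in abscission, by 0.65 ± 0.15 with DN Ras. CDC25B, a phosphatase that activates CDK1, rose by 0.47 ± 0.11 with DN Ras (adjusted p = 0.0124). With the ERK inhibitor MASTL, a kinase that restrains a phosphatase during mitosis, rose by 0.56 ± 0.14, WEE1, a kinase that inhibits CDK1, rose by 0.38 ± 0.11, and PSRC1, a spindle protein, fell by 0.50 ± 0.13.

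Further replication genes gave few calls. Of 50, 0 rose and 1 fell with the MEK inhibitor (DCTPP1, a nucleotide hydrolase, by −0.44 ± 0.11), 0 rose and 2 fell with the ERK inhibitor (POLA2, a subunit of the primase complex, by −0.39 ± 0.11, and LIG1, the ligase that joins Okazaki fragments, by −0.42 ± 0.13), and 0 were called with DN Ras. The shares that fell were 2%, 4% and 0%, against 8.86%, 5.48% and 6.45% of all genes. The median change was 0.0066, −0.034 and −0.0066. Of 20 regulators of cell cycle transcription, E2F5 and E2F6, members of the E2F family that mostly repress, fell with the MEK inhibitor (−0.47 ± 0.15, adjusted p = 0.046, and −0.43 ± 0.11, adjusted p = 0.013). These were 10% of the list, against 8.86% of all genes lower. E2F4, which binds in the DREAM complex in resting cells, fell with DN Ras (−0.43 ± 0.11, adjusted p = 0.015), 5% of the list against 6.45% of all genes. None of the 20 passed with the ERK inhibitor, where 2 had an unadjusted p under 0.05 (10%, against 26.4% of all genes). Of 14 genes of repair in S phase, 0 were called against control in any group, with 2 at an unadjusted p under 0.05 in each. These 2 were 14.3% of the list, against 29.2% of all genes with the MEK inhibitor, 26.4% with the ERK inhibitor and 27.5% with DN Ras. Under median scaling over all probes the calls among these other genes went from 28 over the 3 comparisons with control to 4, and with no background correction to 52.

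Promoters of these further genes were searched for the same motifs. A CHR was found in 60% of 85 windows of the further mitosis genes and in 6.45% of 62 windows of the further replication genes. An E2F site was found in 32.9% and 53.2%. CCAAT was found in 62.4% and 45.2%. Of the 5 mitosis genes called with the MEK inhibitor, 4 had a window in the table, and each of the 4 held a CHR, in CENPF at 40 bases after the start. Over all mitosis genes, 24 of 33 windows held one.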

How the data were processed

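Total RNA of 12 samples was measured on Illumina bead arrays. Per the file headers, the deposited values are mean bead intensities without normalization, for 47322 probes, beside bead numbers and a detection p-value. Per the submitters' processing notes GenomeStudio was used, with no version stated. For 47317 probes the authors also deposited processed intensities, which go below 0, share their quantiles across arrays and served as an alternative, as log2 after adding 32. No column came from outside the series.

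Intensities were background-corrected and quantile-normalized with limma 3.58.1 in R 4.3.3 (neqc, offset 16). The platform annotation names 30112 probes with 1 symbol and 8 with several, and symbols were updated through Entrez identifiers. Probes with a detection p under 0.01 on all 3 arrays of a group (17099, of which 13885 named) gave 10532 genes, each by its brightest probe. Groups were compared with lmFit and eBayes over all 12 arrays, with Benjamini-Hochberg adjustment over all genes and a threshold of 0.05. Adjusted p-values in the text are limma's unless stated, ± after a change is the SE, and intervals are 95%. The code of the fit was run on simulated normal noise, drawn with limma's own variances, with known changes added. That checks the code's estimates and not whether the model holds for these arrays. Precision is limited by 3 arrays per group.

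Members and lists were chosen with earlier results of these data known. Named genes are all called members, the 3 highest and lowest per list and comparison with control, and 10 members fixed by name. Up to 4 called genes per other list are also named, and DUSP6, EGR1 and CCND1 as outputs of the cascade. UBE2C and NUSAP1 on their further probes were named after their values were seen. Same-numbered arrays were not treated as pairs in the main fit, and no label says that the number marks the experiment. Of 18 same-number correlations of the deviations from the group means, 9 exceeded 0.1 (range −0.19 to 0.33). The replicate block, scaling, background, filter, probe choice, samples in the fit and each array were varied.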

Additional observations from a re-analysis of the deposited data

How the results depend on the processing

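Over named members and alternatives, 212 of 280 called values kept direction and side of the threshold and 68 lost the call, with 0 of another sign. Of 1020 uncalled values, 972 kept both, 16 gained a call and 32 had another sign without passing. With arrays scaled to 1 median over all probes, the counts of called members became 1 (replication, DN Ras against control), 0 (mitosis, MEK inhibitor against control), 0 (mitosis, DN Ras against control), 0 (mitosis, MEK against ERK inhibitor), 1 (mitosis, DN Ras against ERK inhibitor, AURKA lower) and 1 (any difference among groups), and the other genes of the pathway 4 in place of 28. With median scaling over the 14516 probes detected on all arrays, chosen after seeing the data, they became 1 (replication, ERK inhibitor against control) and 2 (replication, MEK against ERK inhibitor). With no background correction they became 1 (replication, DN Ras against control), 8 (mitosis, MEK inhibitor against control), 1 (mitosis, DN Ras against MEK inhibitor), 4 (mitosis, DN Ras against ERK inhibitor), 12 (any difference) and 52 (other genes). With the mean of a gene's probes they became 3, 4 and 4 (mitosis, DN Ras against control, MEK against ERK inhibitor and DN Ras against ERK inhibitor). With the 2 groups alone in the fit they became 1 (replication, DN Ras against control) and 0 (mitosis, DN Ras against ERK inhibitor). Calls over all genes in each comparison are given above for median scaling over all probes and are not given for the other settings. Counts under those settings, here and above, are thus a description and may move with the calls over all genes. The cause of these moves was not tested.

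With replicate number as a block, mitosis calls with DN Ras became 2 (TTK and KIF11), CCNB1 with the MEK inhibitor passed (adjusted p = 0.0426), and CCNB2 between MEK and ERK inhibitor was lost. For 7 of 12 arrays, the deviations from the group means correlated best, on average, with those of the arrays of their own number.

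Leaving out 1 array at a time gave replication counts of 0 to 0 against control with either inhibitor, 0 to 2 with DN Ras, 0 to 1 for MEK against ERK inhibitor, 0 to 0 for DN Ras against MEK inhibitor and 1 to 1 against ERK inhibitor. Mitosis counts were 1 to 6 with the MEK inhibitor, 0 to 1 with the ERK inhibitor, 1 to 2 with DN Ras, 0 to 4 for MEK against ERK inhibitor, 0 to 0 for DN Ras against MEK inhibitor and 0 to 5 against ERK inhibitor. The count of any difference was 2 to 11 and that of other genes 10 to 41 (10 without control replicate 1, 11 without control replicate 3). Shares over all genes are not given beside these counts either. The slide as a block was not run, since the files used here name no slide.

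The 95% intervals of replication genes had a median half-width of 0.26 on the log2 scale, which limits what 3 arrays per group can show.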
